A study of Mus musculus with 12 samples.

Results

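Keratins and keratin-associated proteins were followed in embryonic stem cells of the mouse in which p400 or Tip60 had been knocked down. The family was taken as every array probe, other than control spots, whose gene name begins with Krt, plus the probe named 2300006N05Rik, whose reference symbol is Krtap4-13. This gave 90 probes for 73 genes, out of 41174 probes for 27670 gene names on the array. By symbol, 6 genes are keratins of simple epithelia, 25 are other epithelial keratins, 11 are hair keratins and 28 are keratin-associated proteins. The other 3 (Krtcap2, Krtcap3 and Krtdap) carry the prefix but are not keratins by name. The genes were chosen by name, except that 2300006N05Rik, Krt8, Krt18 and Krt23 were selected on their measured fold changes in the knockdowns. The values of those 4 genes are therefore a description and are given with no test. The family as a whole was also picked with results of both knockdowns known, so the counts below describe it and support nothing further.

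The cells were E14, a line of mouse embryonic stem cells. For 72 hr, cells of 1 well received a lipid transfection reagent and 0.33 ng/µl of esiRNA, a mixture of many small interfering RNAs made enzymatically from a longer duplex. Its target was Ep400 (the p400 group), which codes for an ATPase that remodels chromatin, or Kat5 (the Tip60 group; Htatip on the array), which codes for an acetyltransferase in the same protein complex. Control cells received esiRNA to EGFP, a reporter gene. For p400, 4 two-colour arrays on 1 slide each held RNA of p400 knockdown and of EGFP control cells, with p400 in Cy5 on replicates 1 and 3 and in Cy3 on replicates 2 and 4. For Tip60, 4 single-colour arrays stand against 4 EGFP arrays of the same kind, spread over 2 slides. Tip60 replicate 3 was left out of the fits, as the submitters say they did because its intensity profile was an outlier. The design calls the replicates biological; every group is the same cell line, and knockdown leaves part of the targeted RNA. The Ep400 probe used in the fit fell by 0.58 on the log2 scale in p400 knockdown (SE 0.09, adjusted p = 0.00556, limma), with ratios of -0.65, -0.77, -0.24 and -0.67. The other 3 Ep400 probes differed from it: their ratios on replicates 1 to 4 were -0.11, 0.07, 0.11 and 0.02 for one, 0.45, 0.25, 0.25 and -0.05 for another and 0.06, -1.12, -0.57 and -1.24 for the last. The fall of Ep400 RNA is thus not shown by all of its probes. Kat5 fell by 1.49 in Tip60 knockdown (SE 0.07, adjusted p = 1.35e-05), while Kat5 also fell by 0.43 in p400 knockdown (adjusted p = 0.0109). All 6 embryonic stem cell markers examined (Pou5f1, Nanog, Sox2, Zfp42, Esrrb and Cdh1) were well above background on every array in the fits. Between 60.4% and 70.5% of all probes were well above background in a knockdown sample of the fits or on a two-colour EGFP channel, 50.8% on Tip60 replicate 3 and 57.4% to 64.2% on single-colour EGFP arrays. Ranges over Tip60 arrays below leave out replicate 3 unless it is named. Precision is limited by how few arrays each group has.

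Keratins are the intermediate filament proteins of epithelial cells, and a filament is built from pairs of a type I and a type II keratin. Krt8 (type II) and Krt18 (type I) form the pair of simple, single-layered epithelia and are the first keratins to appear in the embryo, in trophectoderm. Krt7, Krt19, Krt20 and Krt23 belong to simple epithelia as well. Other keratins mark layers of stratified epithelia or the inner root sheath of the hair follicle, and hair keratins build the hard shaft. Keratin-associated proteins (Krtap genes) are small proteins rich in cysteine, or in glycine and tyrosine, that cross-link hair keratin filaments, and they lie in clusters of close relatives.

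Of the 73 family genes, 40 to 44 were well above background in p400 knockdown RNA and 35 to 47 in EGFP RNA of the same arrays. On single-colour arrays 34 to 43 were so in Tip60 knockdown and 26 to 35 in EGFP controls. Of the 25 other epithelial keratins, 15 to 17 were detected in p400 knockdown RNA and 13 to 20 in the EGFP RNA beside it. The same class gave 14 to 19 on Tip60 arrays and 11 to 14 on single-colour EGFP arrays. All 6 simple-epithelium keratins were well above background in every p400 knockdown and every Tip60 knockdown sample in the fits. They were so on all 4 two-colour EGFP channels too, and 5 or 6 of them on single-colour EGFP arrays. Of the 11 hair keratins, 5 to 7 were well above background in p400 knockdown RNA and 3 to 7 in EGFP RNA of the same arrays, against 2 or 3 on Tip60 arrays and 0 to 2 on single-colour EGFP arrays. Of the 28 Krtap genes, 11 to 13 were detected in p400 knockdown RNA and 11 to 13 in the EGFP RNA beside it, against 9 to 12 on Tip60 arrays of the fits (8 on Tip60 replicate 3) and 8 to 10 on EGFP arrays. A further 12 Krtap genes and 4 of the other epithelial keratins (Krt25, Krt76, Krt78 and Krt80) had no probe well above background in any sample, so no change in them could be measured.

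**Figure D1:**
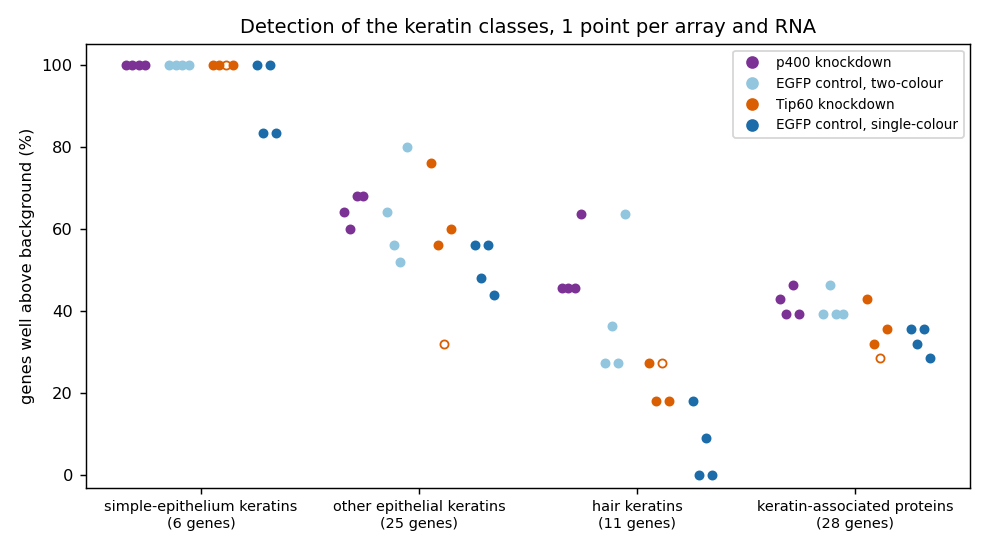
Percentage of the genes of each keratin class (x axis) with a probe well above background (y axis, %), 1 point per array and RNA. Open points are Tip60 replicate 3, which is outside the fits; simple-epithelium keratins were detected nearly throughout, and 0% to 18.2% of hair keratins were detected on single-colour EGFP arrays.

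In p400 knockdown the largest changes of the family were in hair proteins and in Krt23. A gene entered the test if 3 or more arrays showed its probe well above background in knockdown RNA, or 3 or more in EGFP RNA, and it counted as called at an adjusted p (Benjamini-Hochberg over all 18691 genes tested, limma) under 0.05. Of the 42 family genes tested, 19 were called higher, 1 was called lower and 22 had no call, beside 20.1% of all genes called higher and 15% called lower. The median log2 fold change was 0.18 over the 42 and 0.01 over all genes. At least 2-fold rises were seen in 4 family genes and in 532 genes in all. Of the 42, 8 had passed through the knockdown RNA alone, a route that favours rises, and 2 of those 8, Krtap6-5 and Krt27, were called higher; no p is given for them. Without the 4 genes selected on their values, 15 of 38 were called higher. The 20 calls became 11 when p400 replicate 2 was left out and 12 when the arrays were scaled to a common spread.

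The promoters of 6 genes on which the results turn are shown because their RNAs moved together: the Krt8 and Krt18 pair in p400 knockdown, and Krt23, Krtap4-13, Krtap5-1 and Krtap5-4 in both knockdowns. Each is 250 bases before to 50 bases after the gene's start in RefSeq (GRCm38.p6), written 5′ to 3′ along the gene's strand. Capitals mark matches, on either strand, to any of 5 motifs. The first motif is TATAAA, known as the core of the TATA box. The GC box, which the factor Sp1 binds, was searched as GGGCGG. The site of AP-1 factors was searched as TGANTCA. The E-box of basic helix-loop-helix factors was searched as CACGTG. The last motif was CCAAT, after which its box is named.
Krt8, chr15:102004293-102004592, minus strand: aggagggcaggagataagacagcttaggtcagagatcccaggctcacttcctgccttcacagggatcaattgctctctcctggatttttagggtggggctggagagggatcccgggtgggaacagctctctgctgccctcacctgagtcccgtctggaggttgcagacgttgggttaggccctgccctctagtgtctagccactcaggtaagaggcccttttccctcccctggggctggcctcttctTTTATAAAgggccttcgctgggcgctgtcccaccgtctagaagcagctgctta
Krt18, chr15:102027966-102028265, plus strand: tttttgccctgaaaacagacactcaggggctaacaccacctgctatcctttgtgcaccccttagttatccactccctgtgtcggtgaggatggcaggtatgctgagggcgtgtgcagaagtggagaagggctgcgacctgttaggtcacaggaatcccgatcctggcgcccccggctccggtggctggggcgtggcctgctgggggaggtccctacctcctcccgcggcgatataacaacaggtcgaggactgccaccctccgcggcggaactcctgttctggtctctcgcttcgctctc
Krt23, chr11:99493071-99493370, minus strand: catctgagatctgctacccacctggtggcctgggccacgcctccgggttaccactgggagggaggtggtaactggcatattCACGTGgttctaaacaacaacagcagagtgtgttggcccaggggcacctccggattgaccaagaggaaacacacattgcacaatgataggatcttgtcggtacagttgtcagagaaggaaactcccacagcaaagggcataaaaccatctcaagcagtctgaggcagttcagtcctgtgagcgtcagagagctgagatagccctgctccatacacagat
Krtap4-13, chr11:99809847-99810146, minus strand: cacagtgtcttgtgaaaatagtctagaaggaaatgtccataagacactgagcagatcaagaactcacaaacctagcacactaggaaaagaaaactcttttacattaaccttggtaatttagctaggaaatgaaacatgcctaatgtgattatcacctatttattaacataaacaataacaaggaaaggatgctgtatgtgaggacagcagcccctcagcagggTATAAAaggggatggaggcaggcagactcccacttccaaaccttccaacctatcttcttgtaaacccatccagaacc
Krtap5-1, chr7:142297085-142297384, minus strand: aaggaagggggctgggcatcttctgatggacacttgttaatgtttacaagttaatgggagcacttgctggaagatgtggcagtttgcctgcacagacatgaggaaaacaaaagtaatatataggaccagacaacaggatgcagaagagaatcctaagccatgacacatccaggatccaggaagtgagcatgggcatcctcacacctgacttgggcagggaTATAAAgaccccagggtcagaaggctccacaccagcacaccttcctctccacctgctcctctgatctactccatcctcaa
Krtap5-4, chr7:142303252-142303551, plus strand: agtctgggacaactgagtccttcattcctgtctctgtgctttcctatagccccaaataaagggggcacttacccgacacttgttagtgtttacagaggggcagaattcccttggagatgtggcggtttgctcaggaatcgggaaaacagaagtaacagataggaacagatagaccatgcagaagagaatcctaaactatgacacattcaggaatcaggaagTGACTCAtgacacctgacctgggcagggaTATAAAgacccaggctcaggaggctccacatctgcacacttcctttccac

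The letters TATAAA stand in the windows of Krt8, Krtap4-13, Krtap5-1 and Krtap5-4, beginning at -27 from the start in Krtap4-13 and at -30 in Krtap5-1. In Krt8 overlapping matches on both strands lie at the annotated start itself. Krt18 holds none of the 5 motifs in this window, and Krt23 holds only CACGTG, which begins at -169. In Krtap5-4 TGANTCA precedes TATAAA. Of the 73 family genes, 57 had a promoter in the table, and 36 of those (63.2%) held TATAAA on either strand, beside 13.6% of all 32851 promoters in it. The share was 73.1% of 26 Krtap genes and 71.4% of 7 hair keratins, against 40% of 5 simple-epithelium keratins. It was 63.2% of the 19 genes called higher in p400 knockdown and 80% of the 15 called higher in Tip60 knockdown. GGGCGG was found in 7.02% of family promoters against 35.7% of all, TGANTCA in 12.3% against 7.81%, CACGTG in 7.02% against 7.15% and CCAAT in 35.1% against 37.4%. The Krtap5-1 and Krtap5-4 windows share a run of 21 bases, while no other pair of the 6 shares more than 10. These matches are descriptions of letters, not binding sites.

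Krt8 and Krt18 were both 1.86-fold higher in p400 knockdown. Log2 ratios of p400 knockdown over EGFP were 0.85, 1.07, 0.77 and 0.90 for Krt8 on replicates 1 to 4 (fitted 0.90, SE 0.07). Those of Krt18 were 0.87, 1.05, 0.85 and 0.82 (fitted 0.90, SE 0.07). All 4 arrays lay well above 0 for both genes, with little spread, and replicate 2 was the highest for both. A second Krt8 probe, at chromosome 15, 101983072 to 101983131, averaged 1.04 beside the 0.90 of the probe at 101982940 to 101982999 (build mm7, like all probe positions here; their place in exons was not examined). The Krt18 probe lies at chromosome 15, 102018067 to 102018126, and the 2 genes are adjacent in the reference. Eif4b, a translation factor gene on the other side of Krt18, had a log2 fold change of -0.15 in p400 knockdown with no call (adjusted p = 0.119).

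The other simple-epithelium keratins moved less, apart from Krt23, a type I keratin (probe at chromosome 11, 99587118 to 99587177). Krt23 gave log2 ratios of 2.03, 2.95, 2.66 and 1.37, a 4.77-fold higher level in p400 knockdown (2.25, SE 0.25); replicate 4 was the lowest and the 4 ratios all lay above 1. With the deposited LogRatio the value was 3.44. Krt7 rose by 0.40 (SE 0.08, adjusted p = 0.0141), with ratios from 0.23 to 0.58, though its dimmer probe, at 0.22, had no call (adjusted p = 0.0532 among probes). Krt20, a keratin of gut epithelium, rose by 0.27 (SE 0.06, adjusted p = 0.0234). Krt19, at 0.12 with a 95% interval of -0.10 to 0.34, had no call. So 5 of the 6 genes of this class were higher in p400 knockdown, beside 20.1% of all genes. That count includes Krt8, Krt18 and Krt23, which were selected on their values. Without these, Krt7 and Krt20 were called and Krt19 was not.

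Among keratin-associated proteins, 7 of the 11 tested were called higher in p400 knockdown, beside 20.1% of all genes, and 17 of the 28 were not tested. The 7 include Krtap4-13, which was selected on its values, and Krtap6-5, which entered through knockdown RNA alone. Krtap4-13 (probe at chromosome 11, 99912660 to 99912719), a cysteine-rich hair protein, had log2 ratios of 4.44, 4.70, 4.66 and 3.78, a 21.0-fold higher level (4.40, SE 0.15). The neighbours Krtap5-1 and Krtap5-4, also cysteine-rich, are adjacent in the reference and have probes on chromosome 7, at 138723785 to 138723844 and 138731103 to 138731162. Krtap5-1 gave ratios of 2.92, 3.11, 3.44 and 2.17 and rose 7.51-fold (2.91, SE 0.17, adjusted p = 0.000469). Krtap5-4 gave 2.68, 2.95, 3.18 and 2.21 and rose 6.75-fold (2.75, SE 0.14, adjusted p = 0.000408). Replicate 4 was the lowest of the 4 for each of these 3 genes, and replicate 3 the highest for both Krtap5 genes. No probe of the family shared a run of 25 bases with a probe of another gene on the array, but cross-hybridisation among close Krtap relatives was not tested.

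The other Krtap genes, among them the glycine- and tyrosine-rich Krtap6 genes, had smaller values. Krtap6-1 rose by 0.69 in p400 knockdown (SE 0.11, adjusted p = 0.00613), with ratios from 0.31 to 1.21, and its other 2 tested probes averaged 0.59 and 0.61. Krtap6-5, named Krtap16-8 on the array, was higher by 0.65 (SE 0.09); it was well above background in EGFP RNA on 1 of 4 arrays, and the deposited LogRatio gave 2.71. Krtap6-3 rose by 0.29 (SE 0.06, adjusted p = 0.0176). Krtap19-1, named Krtap16-9 on the array, had ratios of 0.81 and 0.79 on the arrays with p400 RNA in Cy5 and of 0.02 and -0.08 on those with it in Cy3. Its fitted rise of 0.39 (adjusted p = 0.0074) thus rests on 1 dye orientation, and without the dye term it was not called (adjusted p = 0.123). Krtap9-1, Krtap21-1, Krtap8-1 and Krtap16-3 had no call, at -0.01 to 0.18.

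Of the other epithelial keratins, 7 of 17 tested were called higher in p400 knockdown, beside 20.1% of all genes. The 7 include Krt27, which entered through knockdown RNA alone. In the fit used here, 0 of the 7 rose by 2-fold or more. That 0 depends on the processing. With the deposited LogRatio, log2 fold changes were 1.596 for Krt71, 1.481 for Krt27, 1.453 for Krt75 and 1.057 for Krt28, each above 2-fold. Those of Krt5, Krt10 and Krt14 were 0.802, 0.701 and 0.359. Krt71, a type II keratin of the inner root sheath, gave ratios of 1.06, 1.44, 0.74 and 0.36 and rose by 0.90 (SE 0.17, adjusted p = 0.0116). Krt75, a type II keratin of the follicle's companion layer, gave 0.85, 1.15, 0.92 and 0.27 and rose by 0.80 (SE 0.14, adjusted p = 0.00914). Both were positive on all 4 arrays and lowest on replicate 4. Krt28, a type I inner root sheath keratin, rose by 0.45 (adjusted p = 0.0131). Krt27, another, was higher by 0.31 and was well above background on 4 p400 and 2 EGFP channels. The basal epidermal pair Krt5 and Krt14 rose by 0.36 (adjusted p = 0.0199) and 0.29 (adjusted p = 0.0173). Krt10, the type I keratin of differentiating epidermis, rose by 0.64 (SE 0.09, adjusted p = 0.00546), but its ratios were 1.29 and 0.84 with p400 RNA in Cy5 and 0.31 and 0.10 with it in Cy3. Its second probe, at 0.21, had no call. The other 10 genes ranged from -0.07 to 0.21 with no call. Among them, Krt42 was not well above background in p400 knockdown RNA on any array. Krt2 entered through knockdown RNA alone, and its tested probe never stood well above background in EGFP RNA of these arrays. The log2 fold change of Krt2 was 0.21, with an interval of -0.01 to 0.43, so no rise is shown.

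By limma, 0 of the 5 hair keratins tested were called in p400 knockdown, and 0 had an unadjusted p under 0.05. Krt33a, Krt35, Krt87, Krt84 and Krt34 had log2 fold changes from -0.03 to 0.18. Krtcap3, a keratinocyte-associated protein, was the 1 family gene to fall, by 0.36 (SE 0.08, adjusted p = 0.0154), with ratios of -0.12, -0.59, -0.34 and -0.39. Krtcap2, a subunit of the oligosaccharyltransferase complex, and Krtdap, a secreted protein of differentiating keratinocytes, had no call at 0.00 and 0.16.

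**Figure D2:**
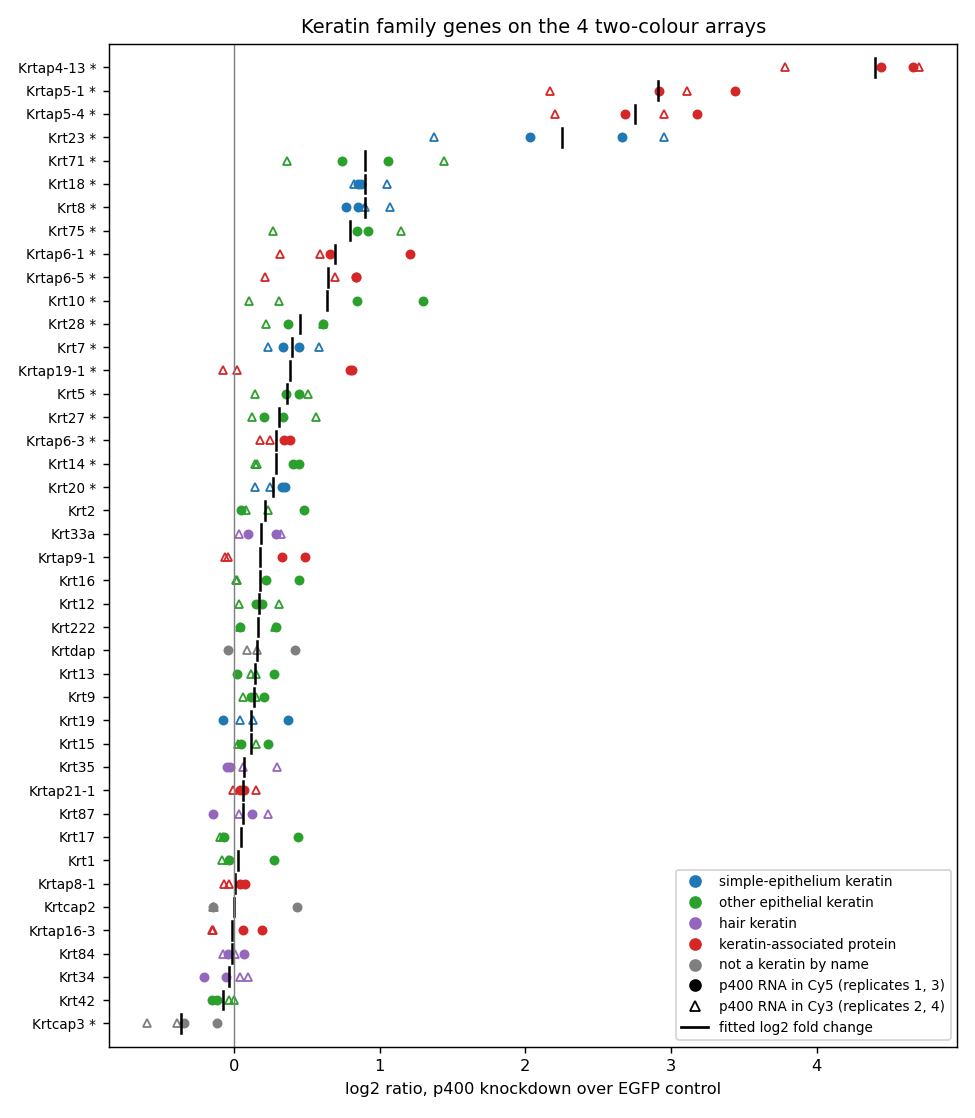
Log2 ratios of p400 knockdown over EGFP control (x axis) for the 42 tested family genes (rows, by fitted value), 1 point per two-colour array, coloured by class and shaped by dye; bars are fitted values and asterisks mark calls. Krtap4-13, Krtap5-1, Krtap5-4 and Krt23 stand above 1 on all 4 arrays, and Krtap19-1 and Krt10 split by dye.

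In Tip60 knockdown Krt23 and Krtap4-13 stood highest in the family, while Krt8 and Krt18 differed by 0.23 and 0.09. Of the 33 family genes tested, 15 were called higher, 0 were called lower and 18 had no call, beside 15.3% higher and 10.3% lower of all 16948 genes tested. The median log2 fold change was 0.29 over the 33 and 0.01 over all genes. At least 2-fold higher were 10 family genes, beside 674 genes in all. Those 10 include Krt23 and Krtap4-13, which were selected on their values. Krt23, Krtap6-5, Krt27 and Krt84, also among the 10, entered through Tip60 RNA alone, and Krt84 had no call. The number depends on the processing: with normexp background correction Krt71, Krt75, Krtap6-5 and Krt27 were below 2-fold, as given further on. Of the 33, 5 had passed through Tip60 RNA alone, and 3 of those, Krt23, Krtap6-5 and Krt27, were called higher; no p is given for them. Without the 4 genes selected on their values, 13 of 29 were called higher. The count was 9 without Tip60 replicate 2, 9 within slide 2, which held EGFP replicates 1 and 3 and Tip60 replicates 2 and 4, and 9 with the series matrix values.

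Levels are log2 signals minus the 75th percentile of their array, and each probe's level is comparable only with itself. Krt8 stood at 4.91, 5.42 and 5.30 on Tip60 replicates 1, 2 and 4 and at 4.97, 4.87, 5.13 and 4.95 on EGFP replicates 1 to 4. The groups overlapped, the difference was 0.23 (SE 0.13) and the second probe gave 0.10. Krt18 stood at 5.62, 5.73 and 5.67 on Tip60 arrays and at 5.40, 5.69, 5.60 and 5.65 on EGFP arrays, a difference of 0.09 (SE 0.08) with overlapping groups. Krt7, Krt19 and Krt20 had no call, at 0.21, 0.03 and 0.08.

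Krt23 was the exception among the simple-epithelium keratins, 19.1-fold higher in Tip60 knockdown. Its levels were -1.44, -1.41 and -1.25 on Tip60 arrays and -5.64, -5.94, -5.42 and -5.49 on EGFP arrays, a gap far wider than the spread within either group (4.26, SE 0.13). It was well above background on all 3 Tip60 arrays and on 2 of 4 EGFP arrays, and the size changed with the background correction. Normexp with an offset of 50 followed by quantile normalization gave 2.35 and the series matrix 2.46. Krt20 lies next to it in the reference.

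Among keratin-associated proteins, 6 of the 9 tested were called higher in Tip60 knockdown. Krtap4-13 stood at 2.91, 2.60 and 2.92 on Tip60 arrays and at -0.55, -0.42, -0.61 and -0.43 on EGFP arrays, a 9.94-fold higher level (3.31, SE 0.10). Krtap5-1 stood at 0.64, 0.92 and 0.63 on Tip60 arrays and at -1.28, -1.17, -1.16 and -1.10 on EGFP arrays, and rose 3.75-fold (1.91, SE 0.09, adjusted p = 1e-05). Krtap5-4 stood at 1.24, 1.65 and 1.46 on Tip60 arrays and at -0.50, -0.58, -0.28 and -0.64 on EGFP arrays, and rose 3.86-fold (1.95, SE 0.12, adjusted p = 4.54e-05). The groups did not overlap for any of these 3 genes, nor for Krt9, Krtcap2 and Krtcap3, which had no call. How many of all genes have groups that do not overlap was not counted. Tip60 replicate 3, at 2.88 for Krtap4-13, 0.63 for Krtap5-1 and 1.28 for Krtap5-4, lay with the other Tip60 arrays.

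Krtap6-5, well above background on 3 of 3 Tip60 and 2 of 4 EGFP arrays, was higher by 1.95 (SE 0.14), with levels of -3.99, -4.07 and -3.76 on Tip60 arrays and of -5.91, -5.80, -5.64 and -6.19 on EGFP arrays; with normexp the value was 0.61. Krtap6-1 rose by 0.93 (SE 0.23, adjusted p = 0.0244), and its other 2 tested probes gave 1.11 and 1.15. Krtap6-3 rose by 0.25 (SE 0.06, adjusted p = 0.0256). Krtap19-1 had no call: EGFP replicate 3 stood at 3.01, against 0.98 to 1.22 on the other EGFP arrays, and Tip60 replicate 2 was dropped as an outlier spot. Krtap9-1 and Krtap16-3 had no call, at 0.04 and -0.06.

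Follicle keratins led the other epithelial class, of which 7 of 14 tested genes were called higher in Tip60 knockdown, beside 15.3% of all genes. The 7 include Krt27, which entered through Tip60 RNA alone. Krt75 stood at -3.46, -3.49 and -3.50 on Tip60 arrays and at -5.34, -5.49, -4.98 and -5.56 on EGFP arrays, and rose by 1.86 (SE 0.14, adjusted p = 0.000102). Krt71 stood at -2.44, -2.55 and -2.30 on Tip60 arrays and between -3.67 and -3.65 on EGFP arrays, and rose by 1.22 (SE 0.07, adjusted p = 2.47e-05). With normexp these rises were 0.65 and 0.70. Krt27, well above background on 3 of 3 Tip60 and 1 of 4 EGFP arrays, was higher by 1.30 (SE 0.19), and with normexp by 0.25 with no call. Krt28 rose by 0.66 (SE 0.08, adjusted p = 0.000924). Krt14 rose by 0.77 (adjusted p = 0.0199) and its partner Krt5 had no call at 0.37 (adjusted p = 0.194). Krt12, the type I keratin of cornea, rose by 0.72 (adjusted p = 0.0236), and with normexp was 0.24 with no call (adjusted p = 0.0668). Krt10 rose by 0.26 (adjusted p = 0.0417); its dimmer probe gave 1.14 with no call. The other 7 genes, from 0.03 to 0.61, had no call.

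Krt84, the 1 hair keratin tested, entered through Tip60 RNA alone and was 1.04 with no call (95% interval -0.12 to 2.21). Krtdap rose by 1.15 (SE 0.33, adjusted p = 0.0416) and its second probe by 1.35, with EGFP replicate 1 at -4.15 and the other EGFP arrays from -5.70 to -5.22. Including Tip60 replicate 3, the highest Tip60 array for this gene at -2.58, it was 1.49. Krtcap2 and Krtcap3 had no call, at -0.13 and -0.14.

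**Figure D3:**
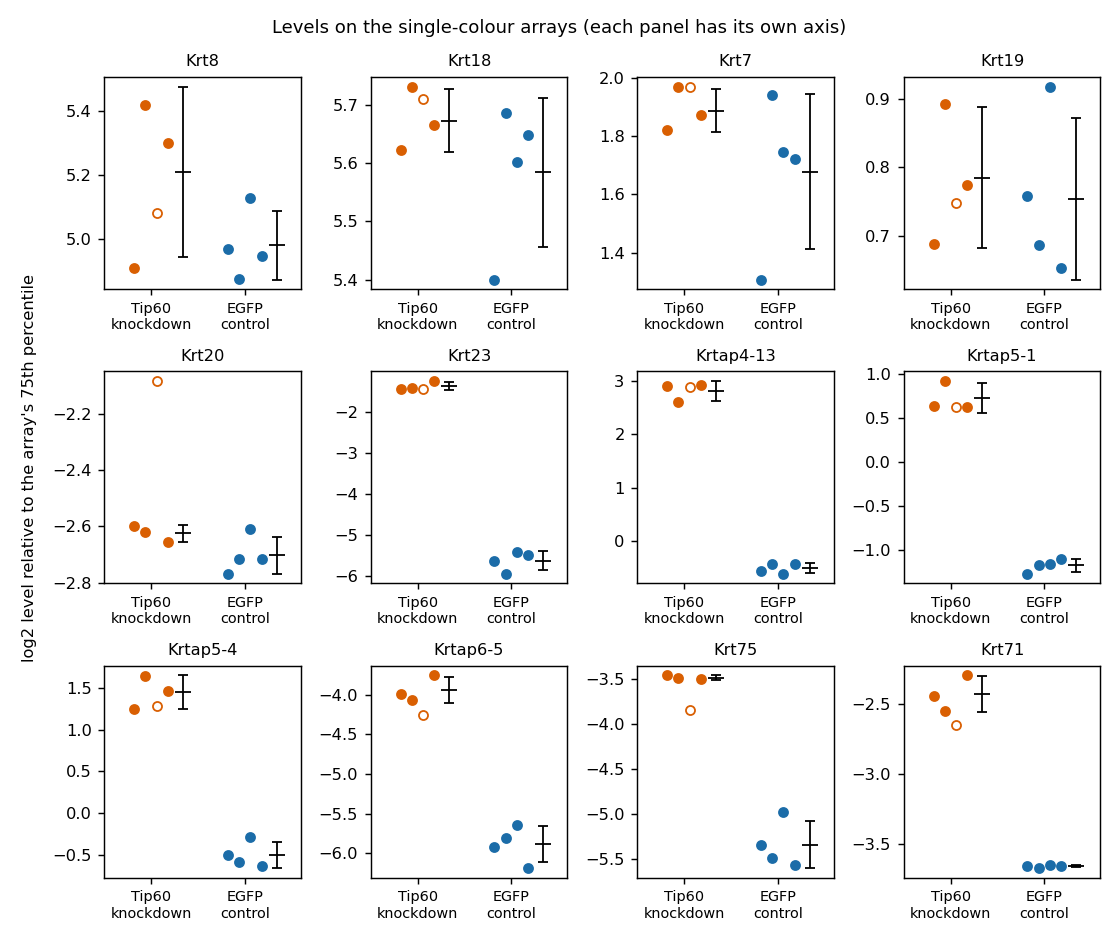
Log2 signal minus the 75th percentile of the array (y axis, a separate scale in each panel) of 12 family genes on Tip60 knockdown and EGFP control arrays, 1 point per array; the open point is Tip60 replicate 3, and bars are the mean and SD of the 3 Tip60 or 4 EGFP arrays in the fit. Tip60 and EGFP points are far apart for Krt23, Krtap4-13 and both Krtap5 genes and overlap for Krt8, Krt18, Krt7, Krt19 and Krt20.

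The 2 knockdowns were then set side by side over the 33 genes tested in both. Apart from the 4 genes selected on their values, 29 were tested in both. Of these, 11 were called higher in both, beside 10.6% of all 16851 genes tested in both. The 11 include Krtap6-5 and Krt27, which entered both comparisons through knockdown RNA alone, a route that favours rises. A further 4 were called in p400 knockdown with no call in Tip60 knockdown (Krt7, Krt20, Krt5 and Krtap19-1), and 2 in Tip60 knockdown with no call in p400 knockdown (Krt12 and Krtdap). The 11 shared genes are 11 of the 15 higher in p400 knockdown and 11 of the 13 higher in Tip60 knockdown, and nothing is read from this overlap. At least 2-fold in both, by the fits used here, were Krtap4-13, Krtap5-1, Krtap5-4 and Krt23. The 2 comparisons have their own EGFP samples, but they also differ in the kind of array, in slides and in the background correction. These cannot be told apart from the knockdown in the difference of the effects.

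The difference itself, p400 effect minus Tip60 effect, was called in 3 of those 29 genes, beside 4.3% of all genes tested in both. This count includes Krtap6-5, which entered both comparisons through knockdown RNA alone, and 9 of the 29 had an unadjusted p under 0.05. The difference was positive for Krtap5-1 (1.0, 95% interval 0.54 to 1.46, adjusted p = 0.0468), while Krtap5-4 gave 0.81 (interval 0.35 to 1.26, adjusted p = 0.0669) with no call. It was negative for Krt75 (-1.06, interval -1.54 to -0.58, adjusted p = 0.0454) and for Krtap6-5 (-1.30), which entered through knockdown RNA alone. For the selected genes the difference is a description: 0.67 for Krt8, 0.81 for Krt18, 1.08 for Krtap4-13 and -2.0 for Krt23. The 3 negative values were near 0, smaller or positive under 3 settings that treat both kinds of array alike. With normexp for both effects, a setting chosen after seeing the data, they became -0.09 for Krt23, 0.04 for Krtap6-5 and 0.15 for Krt75, and 0.79 for Krt18. With processed signals for both, also chosen after seeing the data, they were -0.82 for Krt23, 0.77 for Krtap6-5 and -0.41 for Krt75. With the series matrix for both, they were 0.15 for Krt23, 0.27 for Krtap6-5 and 0.29 for Krt75.

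**Figure D4:**
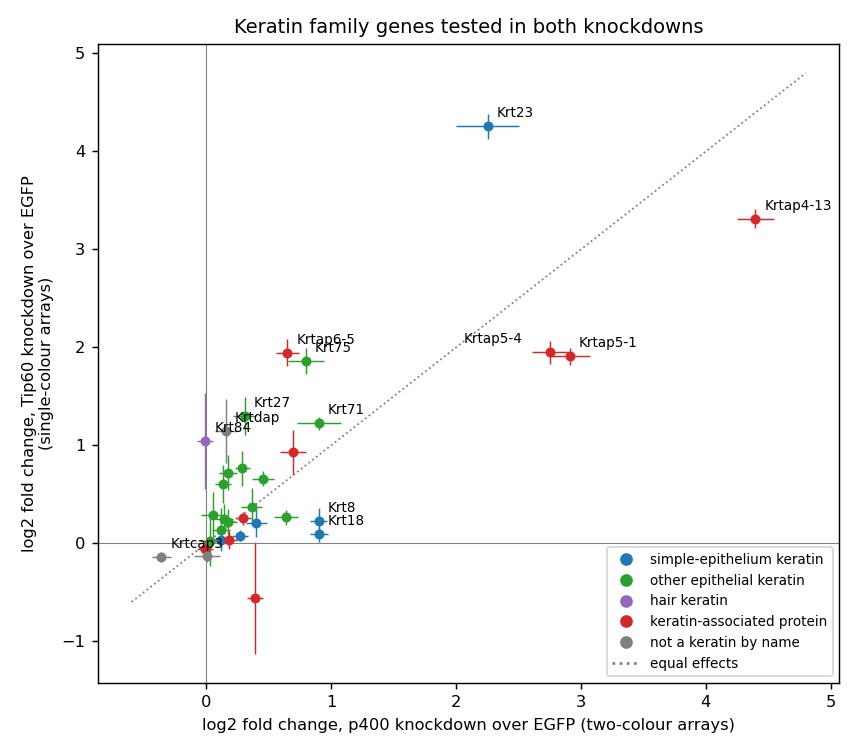
Log2 fold change in p400 knockdown over EGFP (x axis) and in Tip60 knockdown over EGFP (y axis) of the 33 family genes tested in both, coloured by class, with standard errors as bars and equal effects as the dotted line. Krt8 and Krt18 lie near 0.90 on x and close to 0 on y, and Krtap4-13, Krtap5-1 and Krtap5-4 lie right of the line.

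By position, 31 of the 73 genes lie on chromosome 11, where 7 of 20 tested were called higher in p400 knockdown and 7 of 15 in Tip60 knockdown. Chromosome 15 holds 18, with 6 of 10 higher in p400 and 2 of 8 in Tip60 knockdown. Chromosome 16 holds 17, with 4 of 7 higher in p400 and 3 of 5 in Tip60 knockdown. Of all genes tested, 20.1% were called higher in p400 knockdown and 15.3% in Tip60 knockdown. Genes selected on their values are among those called on chromosome 11 in both knockdowns and on chromosome 15 in p400 knockdown. In both knockdowns the calls on chromosomes 11 and 16 include genes that entered through knockdown RNA alone. Clustering of the calls by position was not tested. The reference also gives a Krt symbol to 17 genes that carry another name on the array and so fall outside the family as defined. Of these, 7 were tested in p400 knockdown with 3 called higher, and 3 in Tip60 knockdown with 2 called higher, to be read beside the same shares of all genes. One of them, Krt79, which lies 2 places from Krt8, rose by 1.4 in p400 knockdown (adjusted p = 0.0021) and by 2.09 in Tip60 knockdown (adjusted p = 6.71e-06). These genes, like Eif4b, Krt2 and Krt42 above, were named after their values were seen. Another, Krtap31-1, rose by 0.80 in p400 knockdown (adjusted p = 0.00439) and by 1.47 in Tip60 knockdown (adjusted p = 0.000577).

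Genes whose products work with keratins were examined in lists, beside the 20.1% higher and 15% lower of all genes in p400 knockdown and the 15.3% and 10.3% in Tip60 knockdown. Several counts lie near these shares, among them those of linkers and regulators that rose in Tip60 knockdown. Desmosome genes, which anchor keratin filaments at cell junctions, had 0 higher and 4 lower of 9 tested in p400 knockdown and 0 higher and 2 lower of 8 in Tip60 knockdown. Perp and Dsg2 fell in both, Perp by 0.64 in p400 and by 0.43 in Tip60 knockdown and Dsg2 by 0.44 and 0.42. Of 7 keratin linkers, 1 rose and 3 fell in p400 knockdown and 1 rose and 2 fell in Tip60 knockdown. Dnajb6, a chaperone that binds keratin, rose by 1.18 in p400 and by 0.36 in Tip60 knockdown, and Fam83h, which organises keratin filaments, fell by 0.55 and 0.39. Cornified envelope genes had 3 of 8 higher in p400 knockdown and 2 of 8 in Tip60 knockdown, with 0 lower. Lor (loricrin) rose by 1.32 in p400 knockdown, and Tgm3, a transglutaminase of envelope and hair, rose by 0.45 in p400 and 1.12 in Tip60 knockdown.

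Of other intermediate filament genes, 5 rose and 3 fell of 14 in p400 knockdown, and 3 rose and 3 fell of 14 in Tip60 knockdown. The neurofilament genes Nefl and Nefm rose, Nefl by 1.80 in p400 and 0.39 in Tip60 knockdown and Nefm by 1.11 and 0.65, while Vim (vimentin) fell by 0.37 and Prph (peripherin) by 0.30 in p400 knockdown. In Tip60 knockdown Synm fell by 0.33 and Lmnb1 by 0.31; Bfsp2, a lens filament gene, rose by 1.21 in p400 knockdown. Of 13 tested regulators of keratin genes, 5 rose and 2 fell in p400 knockdown and 2 rose and 4 fell in Tip60 knockdown. Ovol1 rose by 0.47 in p400 and by 0.72 in Tip60 knockdown and Tfap2c, an AP-2 factor of trophectoderm and epidermis, fell by 0.69 and 0.56. Fos rose by 0.60, Grhl2 by 0.48 and Ets2 fell by 0.33 in p400 knockdown; Tfap2a rose by 0.52 and Junb fell by 0.51 in Tip60 knockdown.

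Marker lists of cell types that carry keratins were examined as well, to be read beside the same shares of all genes. Of 12 hair follicle genes, 8 were tested in p400 knockdown with 4 higher and 0 lower, and 7 in Tip60 knockdown with 4 higher and 0 lower. Tchh (trichohyalin of the inner root sheath) rose by 1.99 in p400 and 1.23 in Tip60 knockdown, while Foxn1 and Shh were not well above background in any sample of the fits. The summed level of this list ran from 4.88 to 5.21 on Tip60 arrays of the fits (5.32 on Tip60 replicate 3) and from 3.67 to 3.81 on EGFP arrays, in units of the array's 75th percentile. Trophectoderm genes had 6 of 11 higher and 1 lower in p400 knockdown and 5 of 11 higher and 0 lower in Tip60 knockdown. Cdx2, counted among the 6, entered the p400 comparison through knockdown RNA alone. In p400 knockdown Id2 rose by 0.88 and Esx1 by 0.84, while Tead4 fell by 0.37. In Tip60 knockdown Plac1 rose by 1.17 and Eomes by 0.47. The summed level of the trophectoderm list ran from 5.86 to 6.20 on Tip60 arrays and from 4.98 to 5.39 on EGFP arrays.

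Endoderm genes, whose cells carry Krt8 and Krt18 too, had 8 of 11 higher in p400 knockdown and 8 of 9 in Tip60 knockdown, with 0 lower. Cubn rose by 1.54 and Gata6 by 1.26 in p400 knockdown, and Sox17 by 1.18 in Tip60 knockdown. Afp is counted as higher in both knockdowns but entered each through knockdown RNA alone, with no EGFP signal well above background on either kind of array. Ttr was not well above background in any sample of the fits. Their summed level ran from 2.25 to 2.39 on Tip60 arrays and from 1.68 to 1.75 on EGFP arrays. Of the basal epidermis genes, Lamb3 rose by 0.64 and Itga6 fell by 0.20 in Tip60 knockdown, and Trp63, their defining factor, was not well above background in any sample of the fits. Feeder fibroblast genes had 4 of 7 higher in p400 knockdown and 3 of 7 in Tip60 knockdown, with 0 lower, led by Thy1 at 1.43 in p400 and 1.25 in Tip60 knockdown. Next were Col1a1, which rose by 0.80 in p400 knockdown, and Fbn1, which rose by 0.51 in Tip60 knockdown. In Tip60 knockdown Col1a1, Col1a2, Col3a1 and Acta2 had no call, from -0.23 to 0.07. The summed level of the fibroblast list overlapped, from 15.17 to 15.48 on Tip60 arrays and from 14.59 to 16.53 on EGFP arrays. Embryonic stem cell genes had 0 of 6 higher and 2 lower in each knockdown, where Sox2 fell by 0.21 in both, Esrrb fell by 0.25 in p400 and Cdh1 fell by 0.24 in Tip60 knockdown.

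Some marker values moved on the same arrays as Krt23 in both knockdowns, and as Krt8 and Krt18 in p400 knockdown. In Tip60 knockdown marker values moved as well, while Krt8 and Krt18 differed by 0.23 and 0.09 with overlapping groups. The part of the marker genes in the keratin values was not tested. In bulk RNA, a change in the number of cells of a type and a change in RNA per cell cannot be told apart.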

How the data were processed

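RNA of E14 cells was measured on 12 Agilent arrays of design 014868. Per the file headers, Feature Extraction 9.5.1.1 gave each spot's mean and background intensity, a background-subtracted processed signal and, on two-colour arrays, LogRatio, the log10 ratio of red over green. The series matrix, as deposited, holds values on a log2 scale; their processing is not given in the sources used here. From these, two-colour mean intensities were corrected with normexp (offset 50) and loess and fitted with a dye term. For single-colour arrays the 75th percentile of each array was subtracted from log2 processed signal. Both were fitted with limma 3.58.1 (R 4.3.3), two-sided, with Benjamini-Hochberg adjustment over all genes and a threshold of 0.05. Control spots (1639) and outlier spots were left out, and where a gene had several tested probes the brightest stood for it. Levels of a probe therefore set no order between genes.

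The members, lists and rule for named genes were chosen with earlier results of these data known. The rule took Krt8, Krt18, Krt23, Krtap4-13, every called family gene, the other members by class range, and up to 2 rises and 2 falls per list. The lists were desmosome, cornified envelope, other intermediate filaments, keratin linkers, keratin gene regulators, hair follicle, trophectoderm, endoderm, basal epidermis, feeder fibroblast and embryonic stem cell genes. Of the 73 genes, 72 matched a reference symbol, and 12 carry another name on the array. Part of the basal epidermis list is not reported here. The fits were tested on simulated data. Alternatives changed the background correction, normalization, filter, probe choice, dye term, slide block and arrays.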

Additional observations from a re-analysis of the deposited data

Results flagged for a closer look

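Among 65 groups of 4 arrays examined for 22 genes, 8 held an array far from the other 3, and chance alone gives about 1 in 20 such groups. On single-colour arrays, with Tip60 replicate 3 counted among the Tip60 arrays, these were log2 levels relative to the 75th percentile. Krtap19-1 stood at 3.01 on EGFP replicate 3, against 1.22 or less on the other EGFP arrays, and without that array its Tip60 difference was -0.09 in place of -0.56. Tip60 replicate 3, which was outside the fits, stood apart for Krt20 at -2.08 (next -2.60), for Krtdap at -2.58 (next -3.89) and for Krt75 at -3.84 (next -3.50). Tip60 replicate 2 was lowest for Krtap4-13, at 2.60 (next 2.88), and highest for Krtap5-1, at 0.92 (next 0.64). Tip60 replicate 4 was highest for Krt23, at -1.25 (next -1.41), and EGFP replicate 2 lowest for Krt71, at -3.67 (next -3.65), gaps that are small beside the differences of those genes between groups.

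The p400 effect minus the Tip60 effect passed the threshold for Krtap5-1 at 1.0, Krt75 at -1.06 and Krtap6-5 at -1.30, the last of which entered through knockdown RNA alone. For Krt18, Krtap4-13 and Krt23, selected on their values, it was 0.81, 1.08 and -2.0, given with no test. The 3 negative values belong to genes dim in EGFP RNA, and they changed with the background correction.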

How the results depend on the processing

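The number of family genes called in p400 knockdown (20) was 19 to 27 under other normalizations, filters and probe choices, except 18 with probes well above background throughout and 12 when arrays were scaled to a common spread. Leaving out a replicate gave 11 to 18. In Tip60 knockdown (15) it was 10 to 16 under the other settings, but 9 with the series matrix values and 9 within slide 2, and leaving out a replicate gave 9 to 15. Replicate numbers did not pair the samples (same-number correlations -0.43, -0.13 and -0.26); a replicate block gave 11 calls, against 15 from the same 6 arrays with no block. Of 283 alternative p400 values of 22 genes, 31 lost and 3 gained the call and 0 reversed; of 413 Tip60 values, 59 lost it, 2 gained it and 4 reversed, all without a call. Krt20 in Tip60 knockdown was -0.043 with normexp, -0.053 with quantile normalization of processed signal and -0.01 in the series matrix, and Krtap19-1 was 0.60 in the series matrix. The cause was not tested.

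Counting also Krt18, Krt23 and Krtap4-13, which were selected on their values, the difference of effects was called in 6 genes, 9 with Welch-Satterthwaite degrees of freedom, 4 with processed signal for both effects and 1 with normexp for both, the last 2 settings chosen after seeing the data. Krt75 reversed to 0.29 in the series matrix and 0.15 with normexp. Krtap6-5 reversed to 0.27, 0.041 and, with processed signal, 0.77. Krt23 reversed to 0.15 in the series matrix.

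Centring arrays on their median moved the median of all genes to -0.11, from 0.01, and the share of p400 calls that were higher to 29.8%, from 57.3%; scaling gave 77.5%. Family counts under median centring were 18 higher and 2 lower. For Tip60 calls the share was 47.4% with quantile normalization, against 59.7%. Signal over background limits the dim genes.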
